A study of Mus musculus with 1528 samples.

Results

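The genes described here were 7 inflammatory or macrophage cytokines, *Tnf*, *Il1a*, *Il1b*, *Il6*, *Il12b*, *Il18* and *Csf1*, together with the EGF receptor ligand *Hbegf*. These 8 genes were read by symbol from a table of 55421 genes, and all 8 were found. They were measured in single bone marrow-derived macrophages (BMDMs), macrophages grown from marrow in human M-CSF, the counterpart of the protein made from mouse *Csf1*. The cells came from 2 wild-type C57BL/6 mice and were stimulated for a day with IL4+IL13 (called here without TNF) or IL4+IL13+TNF (with TNF). IL4, IL13 and TNF were used at 10 ng/ml. Live cells were sorted singly into 4 plates, plates 2 and 3 from mouse 1 and plates 4 and 5 from mouse 2, and sequenced by Smart-seq2. No plate held both mice, so a difference between the mice cannot be told apart from one between their plates. The paper describes 2 independent experiments, and if each used 1 mouse, experiment and mouse cannot be told apart either. Unstimulated cells and cells given TNF alone were not analysed here. Every plate held IL4+IL13 in its upper rows and IL4+IL13+TNF in its lower rows, so the position on the plate and the treatment cannot be told apart.

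A total of 1386 of 1524 wells were kept, 357 and 333 cells without TNF and 347 and 349 cells with TNF. Wherever a pair of values is given for a treatment, mouse 1 comes first and mouse 2 second. The median fragments per cell in these 4 sets of cells lay between 447264 and 490310. All 8 macrophage markers, among them *Adgre1*, *Csf1r* and *Lyz2*, exceeded a CPM (counts scaled to equal library totals) of 1 in every set. The summed level of the 7 neutrophil markers reached at most 5.58 CPM, that of the 7 T and NK cell markers 2.25 CPM, and that of the 5 B cell markers 3.38 CPM. The 5 mast cell and basophil markers summed to at most 0.829 CPM and the 5 fibroblast markers to at most 1.67 CPM. The 6 dendritic cell markers, in contrast, summed to 8.56 and 12.9 CPM without TNF and to 29.9 and 204 CPM with it, and with TNF this was largely *Ccr7*.

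TNF binds its receptors on macrophages and signals to NF-κB and AP-1, and the genes for TNF itself, the IL1 cytokines, IL6 and the p40 chain of IL12 are classical targets of these factors. Most inflammatory cytokine transcripts are short-lived and are usually made by a fraction of the cells at a time. IL1β and IL18 are made as precursors that inflammasome caspases cleave, whereas TNF and HB-EGF are shed from the cell surface by the protease ADAM17. The TNF added to the cultures was protein, so it adds nothing to the count of *Tnf* mRNA.

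The RefSeq table of promoters held all 7 genes that were looked up; *Hbegf* was not looked up. The 250 bases before the start are shown for *Il6*, *Csf1* and *Tnf*, because these differ in the motifs they hold and in how their mRNA was spread over the cells (GRCm38.p6, written 5′ to 3′ along the gene). Capitals mark matches, on either strand, to the κB consensus, to the AP-1 site TGANTCA, or to the TATA box letters TATAAA.
Il6, chr5:30012864-30013113, plus strand: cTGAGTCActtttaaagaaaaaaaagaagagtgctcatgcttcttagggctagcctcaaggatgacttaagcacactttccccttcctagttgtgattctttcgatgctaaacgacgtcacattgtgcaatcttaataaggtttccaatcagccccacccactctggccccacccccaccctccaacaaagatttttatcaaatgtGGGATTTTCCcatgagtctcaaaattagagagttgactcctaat
Csf1, chr3:107760470-107760719, minus strand: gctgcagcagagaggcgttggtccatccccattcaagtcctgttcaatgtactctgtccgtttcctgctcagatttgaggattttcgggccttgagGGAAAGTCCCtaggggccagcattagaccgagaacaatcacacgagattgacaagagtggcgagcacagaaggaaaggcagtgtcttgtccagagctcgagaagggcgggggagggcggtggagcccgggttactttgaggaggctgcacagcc
Tnf, chr17:35202008-35202257, minus strand: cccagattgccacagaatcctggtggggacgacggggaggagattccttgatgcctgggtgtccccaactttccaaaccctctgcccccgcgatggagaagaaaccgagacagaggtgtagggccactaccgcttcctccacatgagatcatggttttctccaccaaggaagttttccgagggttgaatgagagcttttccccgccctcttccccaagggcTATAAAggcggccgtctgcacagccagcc
The κB match of *Il6* reads GGGATTTTCC and lies 44 to 35 bases before the start, and its AP-1 match TGAGTCA lies 249 to 243 bases before it. The κB match of *Csf1* lies on the opposite strand, 154 to 145 bases before the start, where it reads GGGACTTTCC. The *Tnf* window held only TATAAA, 29 to 24 bases before the start. A κB match was present in 3.9% of all 32851 promoters in the table, an AP-1 match in 6.75% and TATAAA in 12.4%. *Il1a* and *Il1b* also had TATAAA close to the start, *Il1a* had an AP-1 match and *Il18* had TATAAA on the opposite strand far from the start. None of the 3 motifs was found in this window of *Il12b*. A match is a description of the letters only. Any link between these motifs and the spread of the mRNA over cells was not tested.

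In the sums over the cells of each mouse, 7 of the 8 genes were higher with TNF in both mice. *Il18* was lower in mouse 1 alone. For *Il1b* the difference was very small and rested in mouse 1 on 2 fragments without TNF and 3 with it. That of *Il12b* rested in mouse 1 on 1 cell, which held 926 of its fragments with TNF. The share of all genes that were higher in both mice is not given here, so the count of 7 is a description only. The treatments did not overlap for *Il6*, *Il12b*, *Il1a* and *Hbegf*. Over all 17034 genes tested, 18.6% had levels that did not overlap and were higher with TNF. *Il12b* and *Il1a* were not among the genes tested. Of the 8 genes, 6 were found in enough cells to be tested, and 0 of the 6 passed an adjusted p of 0.05 in the edgeR quasi-likelihood test, where 0.00587% of all genes tested did (1 gene, *Clec4e*; 1380 genes had an unadjusted p under 0.05). Among these 6, *Il6* entered only through the cells given TNF. With the mouse as a block in the same test, 1 of 6 passed, *Il6*, beside 3.82% of all genes tested in either direction and 1.94% in the higher direction. DESeq2 called 2 of 6, *Il6* and *Hbegf*, as higher, beside 1.98% of all genes with an adjusted p. Since *Il6* entered through the group where it is high, its call is a description and not support. In edgeR without the gene filter its adjusted p was 0.245, and 0.0338 with the block. On simulated counts with the dispersions and mouse effects of these data, the block fit gave more false calls than its threshold allows, so calls that need the block are less certain. Exchanging treatments within the 2 mice, an exact permutation test cannot give a two-sided p below 0.5, or below 0.33 when the mice are not paired.

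**Figure D1:**
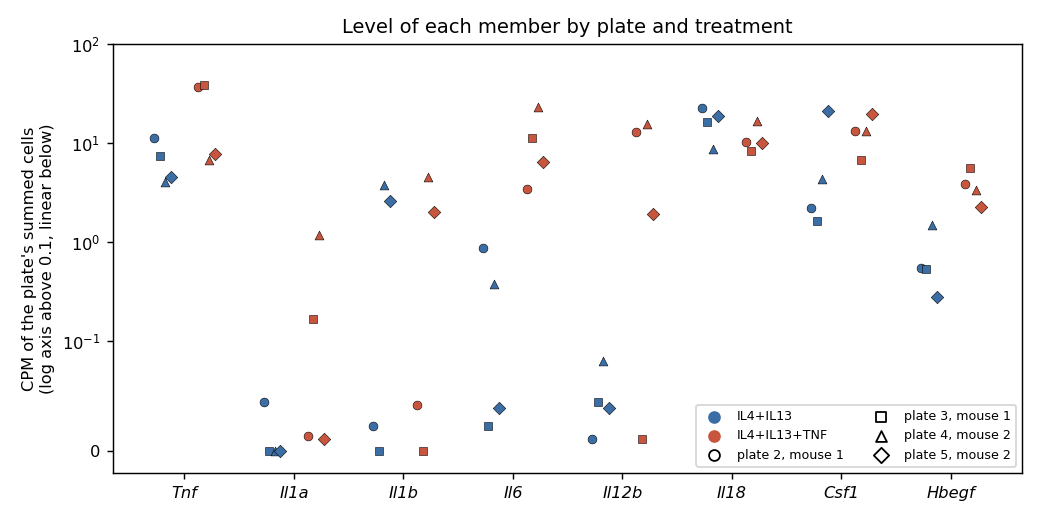
CPM of each gene in the summed cells of each plate (points; shape gives plate and mouse, colour the treatment; vertical axis logarithmic above 0.1 and linear below). *Il6* lay between 3.44 and 23 CPM on the 4 plates with TNF and at or below 0.876 CPM without it, whereas *Il18* overlapped between treatments.

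*Tnf* (ENSMUSG00000024401, mm10 chr17:35199381-35202007) was higher with TNF within each mouse, but the mice lay far apart. Its level was 9.17 and 4.09 CPM without TNF and 39.3 and 7.43 CPM with TNF. The value of mouse 2 with TNF lay below that of mouse 1 without it, so the treatments overlapped. Within each mouse the level was 4.29-fold and 1.82-fold higher with TNF, and it was higher on each of the 4 plates, by 1.66-fold to 5.15-fold. The edgeR log2 fold change was 1.82 ± 0.86 (SE, adjusted p = 0.693), and with the mouse as a block it was 1.49 (edgeR adjusted p = 0.0826). Without the sum of mouse 1 with TNF, the log2 fold change was 0.16. Leaving out the *Tnf* counts of the 5 cells highest in it in every set gave 2.07 with the block (edgeR adjusted p = 0.0177). Only the 8 genes were trimmed in this way, each in its own top cells. That adjusted p therefore sets trimmed genes beside untrimmed ones and is a description only. At an equal depth of 339000 fragments, *Tnf* was found in 29.8% of cells (95% exact interval 24.9 to 35.1) without TNF and 47.9% (42.1 to 53.6) with TNF in mouse 1. In mouse 2 it was found in 11% (7.74 to 15) and 12.1% (8.66 to 16.3), intervals that overlap widely. Cells with at least 10 fragments numbered 38 of 357 without TNF and 107 of 347 with it in mouse 1, and 11 of 333 and 27 of 349 in mouse 2.

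*Il6* (ENSMUSG00000025746, mm10 chr5:30013114-30019981), which encodes a cytokine of the acute-phase response, had the largest difference among the 6 genes tested. It was at 0.44 and 0.208 CPM without TNF and at 8 and 15 CPM with TNF. Both mice were higher with TNF, by 18.2-fold and 72.5-fold, but the plates differed. The level without and with TNF was 0.876 and 3.44 CPM on plate 2 (3.93-fold) and 0.0225 and 11.1 CPM on plate 3. On plate 4 it was 0.372 and 23 CPM (61.9-fold), and on plate 5 it was 0.0393 and 6.44 CPM. On plate 2 the share of cells with *Il6* at equal depth was lower with TNF, 3.12% against 6.02%. On plates 3, 4 and 5 that share was higher with TNF. The log2 fold change was 5.15 ± 0.608 (SE, edgeR adjusted p = 0.155), and 5.13 ± 0.573 with the mouse as a block (edgeR adjusted p = 0.0182). Without the *Il6* counts of the 5 cells highest in it in every set, the block fit gave 4.77 (edgeR adjusted p = 0.126). Few cells were involved: 25 of the 1386 cells had at least 10 fragments and together they held 98.3% of all *Il6* fragments. Of these 25 cells, 21 had received TNF, 7 in mouse 1 and 14 in mouse 2. The share of cells with any *Il6* at equal depth was 3.61% and 1.29% without TNF and 3.96% and 5.88% with TNF, so in mouse 1 the shares barely differed while the level did. The highest cells held 511 and 598 fragments with TNF and 30 and 27 without it.

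*Il12b* (ENSMUSG00000004296, mm10 chr11:44400063-44414033), the p40 chain shared by IL12 and IL23, was found in too few cells to pass the gene filter. Without that filter its edgeR adjusted p was 0.176, and 0.00913 with the mouse as a block, again with all of the difference in few cells given TNF. It was at 0.0275 and 0.0593 CPM without TNF and at 5.97 and 8.96 CPM with TNF, 217-fold and 151-fold higher. The share of cells with a fragment at equal depth did not follow the level, at 1.2% and 1.94% without TNF and 0.66% and 2.29% with TNF. No kept cell of the mice without TNF had more than 1 fragment. In mouse 1 a single cell, on plate 2, held 926 of the 928 fragments counted with TNF. On plate 3, the other plate of mouse 1, the level was lower with TNF, with 4 fragments without TNF and 1 with it.

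Nearly all *Il12b* lay in cells rich in *Ccr7*, the receptor that guides mature dendritic cells to lymph nodes and a member of the dendritic marker list. A total of 12 cells had at least 50 *Ccr7* fragments, a limit set after the values were seen, between 75 in the lowest of these cells and 7 in the highest of all other cells. All 12 had received TNF, with 1 on plate 2, 8 on plate 4 and 3 on plate 5. They held 2479 of all 2514 *Il12b* fragments, or 98.6%, and 5 of the 12 had at least 10. The 1 other cell that reached 10 held exactly 10 fragments. *Fscn1*, an actin-bundling protein of mature dendritic cells that was looked up after the values were seen, had 98% of its fragments in the same 12 cells. Their median level of *Adgre1*, which encodes F4/80, was 5.9 CPM against 648 CPM in the other 684 cells with TNF, that of *Csf1r* was 20.6 against 1132.6 CPM, and that of *Lyz2* was 352 against 19847.5 CPM. One of the 12 cells was an exception, with 723 *Adgre1* fragments, where the second highest had 19. Other dendritic markers were uneven. *Zbtb46* was found in 5 of the 12 cells, which held 18.9% of its fragments. *Flt3* had a median of 2.95 CPM in the 12 cells and 6.44 CPM in the other cells with TNF. The rest of the dendritic list, *Xcr1*, *Siglech* and *Clec9a*, is not given for these cells, so the type of the 12 cells was not tested. Without the 12 cells, *Il12b* with TNF was at 0.0124 and 0.103 CPM. By the same plain totals it was at 0.0281 and 0.0616 CPM without TNF. Mouse 1 was then lower with TNF, on 2 fragments against 5.

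*Il6* was distributed differently. The 12 *Ccr7*-rich cells held 9.23% of its fragments, 369 fragments, nearly all in 2 cells with 179 and 186. The other 23 cells with at least 10 *Il6* fragments had between 39 and 796 *Adgre1* fragments. Their *Csf1r* ranged from 6.45 to 3767.3 CPM and their *Lyz2* from 217 to 61883.4 CPM, so some were low in these macrophage markers. The cell with 598 *Il6* fragments was the lowest in *Csf1r*. Without the *Ccr7*-rich cells, *Il6* was at 7.68 and 13 CPM with TNF. Its log2 fold change was then 5.04 (edgeR adjusted p = 0.154), and 5.05 with the block (edgeR adjusted p = 0.0142). These values are descriptions and not support, since *Il6* entered the test only through the cells given TNF. No cell had at least 10 fragments of both *Il6* and *Il12b*.

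**Figure D2:**
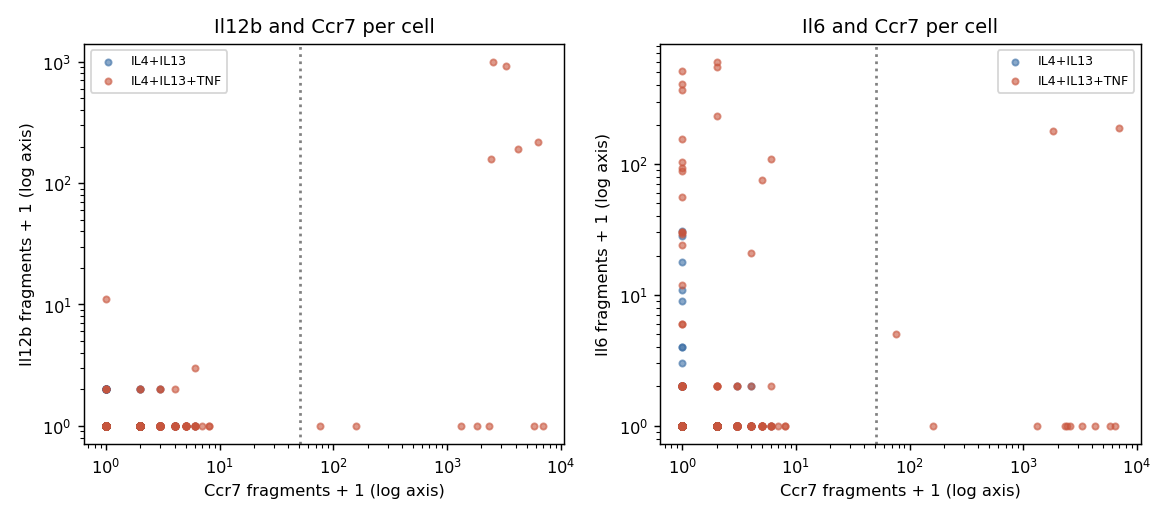
Fragments of *Il12b* (left) and *Il6* (right) against *Ccr7* in each of the 1386 cells, 1 added, both axes logarithmic; the dotted line marks 50 *Ccr7* fragments. High *Il12b* lies to the right of the line apart from 1 cell with 10 fragments, whereas most *Il6*-rich cells lie to the left of it.

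The IL1 genes were either nearly silent or found almost only in the cells of 1 mouse and its plates, which cannot be told apart. *Il1a* (ENSMUSG00000027399, mm10 chr2:129299610-129309972), an alarmin that acts through the IL1 receptor, had 125 fragments in all. It was at 0.022 and 0 CPM without TNF and at 0.103 and 0.599 CPM with TNF. Of the 105 fragments of mouse 2 with TNF, 98 came from 1 cell, and the level was at least 33.6-fold higher than 3 fragments in that mouse's cells without TNF would give. The gene overlaps *Gm14023*, which had 1060 fragments, and counting without strand cannot separate shared stretches. *Il1a* had 0 fragments in 309 cells at equal depth in mouse 2 without TNF, which allows a share of cells with a fragment of up to 0.971% by the limit of 3 counts (exact upper bound 1.19%).

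*Il1b* (ENSMUSG00000027398, mm10 chr2:129364570-129371139), the inflammasome-dependent partner of *Il1a*, differed far more between the mice, and so between their plates, than between the treatments. Mouse 1 was at 0.011 CPM without TNF and 0.0193 CPM with TNF, and mouse 2 at 3.08 and 3.37 CPM. The log2 fold change was 0.14 ± 2.42 (SE, edgeR adjusted p = 0.997). In mouse 2, *Il1b* was found in 56.3% of cells (50.6 to 61.9) without TNF and in 39.2% (33.7 to 44.9) with TNF at equal depth. In mouse 1 the shares were 0.602% and 0 of 303 cells, which allows up to 0.99% of cells with a fragment by the limit of 3 counts (exact upper bound 1.21%). The intervals of mouse 2 treat cells as independent, whereas *Il1b* followed the rows of wells, as described below. Rows and treatment cannot be told apart, so the lower share of mouse 2 with TNF is a description only. At 5 or more fragments at equal depth, the shares of mouse 2 were 3.24% without TNF and 3.59% with it. Counts were low and even, since 375 of the 380 cells with any *Il1b* had at most 8 fragments. The 5 cells with at least 10 were all from mouse 2 with TNF.

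The low counts of *Il1b* followed the rows of the plates. Rows accounted for 44% of its variance between cells of the same plate and treatment, on the log2(CPM + 1) scale, where the median of all 17034 genes was 4.23%. On plate 4 the share of cells with *Il1b* ranged from 38.1% to 100% over the 8 rows without TNF and from 21.1% to 100% over the 8 rows with TNF. On plate 5 it ranged from 0 to 95% and from 0 to 100%, and 4 rows with 87 cells had no *Il1b* fragment. Columns of wells accounted for 9.34%, below the median of 13.7% over all genes. The part of the wells' rows in the difference between mice was not tested. The share between rows was 7.38% for *Tnf* (percentile 97.6 of all genes tested) and 6.3% for *Il6* (percentile 95.8), and *Il6* also had 19.1% between columns (percentile 99.7). For *Csf1*, *Il18* and *Hbegf* the share between rows was 4.66%, 4.3% and 3.59%. The part of the wells' position in the differences of *Tnf* and *Il6* was not tested.

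**Figure D3:**
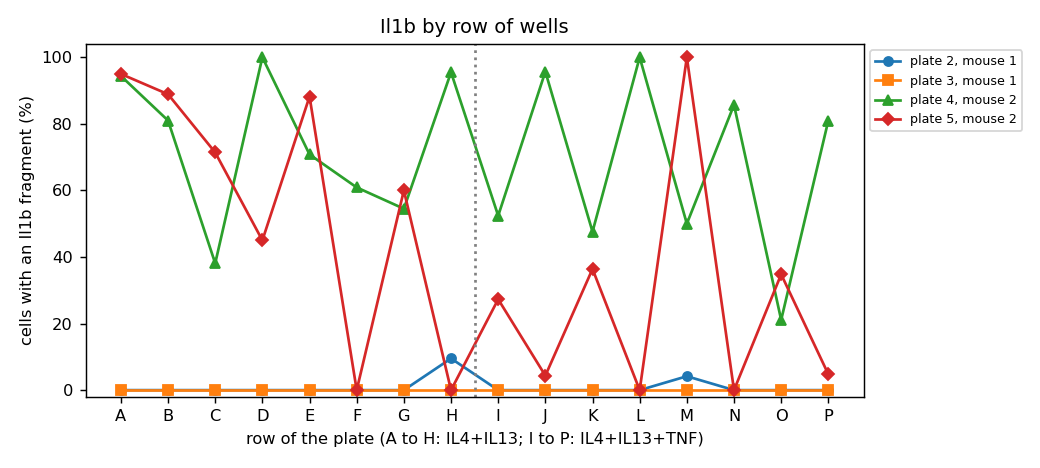
Share of kept cells with at least 1 *Il1b* fragment (vertical axis, percent, not thinned) in each row of wells (horizontal axis), 1 line per plate; the dotted line separates the treatments. Plates 4 and 5 swing between rows, from 0 to 100% on plate 5 with TNF, while plate 3 stays at 0.

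*Il18* (ENSMUSG00000039217, mm10 chr9:50554827-50581840), an inducer of interferon-γ that is stored as a precursor, was the 1 gene of the 8 that was not higher with TNF in both mice. It was at 18.8 and 13 CPM without TNF and at 9.59 and 13.6 CPM with TNF. The treatments overlapped, and the mice went opposite ways, at 0.51-fold and 1.04-fold. On 3 plates it was lower with TNF, at 0.462-fold to 0.524-fold, and on plate 4 it was 1.9-fold higher. The log2 fold change was -0.46 ± 0.318 (SE, edgeR adjusted p = 0.825). It was found in 31% and 17.2% of cells without TNF and in 17.8% and 20.9% with TNF.

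*Csf1* (ENSMUSG00000014599, mm10 chr3:107741048-107760469) encodes the growth factor that keeps macrophages alive, and the human protein was added to the cultures. It was at 1.87 and 11.8 CPM without TNF and at 10.1 and 16.7 CPM with TNF. The value of mouse 2 without TNF stood above that of mouse 1 with TNF, and 1 cell with 1284 fragments supplied most of it. On 3 plates *Csf1* was 3.01-fold to 5.99-fold higher with TNF, and on plate 5 it was at 21.2 CPM without TNF and 19.4 CPM with it. The log2 fold change was 0.97 ± 0.859 (SE, edgeR adjusted p = 0.883), and 1.45 with the mouse as a block (edgeR adjusted p = 0.179). Leaving out the *Csf1* counts of the 5 cells highest in it in every set gave 2.9 with the block (edgeR adjusted p = 0.0175). As for *Tnf*, that adjusted p sets trimmed genes beside untrimmed ones and is a description only. The share of cells with *Csf1* does not weight single cells by their level. It was 7.53% (4.93 to 10.9) and 9.71% (6.65 to 13.6) without TNF and 14.2% (10.5 to 18.6) and 22.9% (18.3 to 28) with TNF. The shares per mouse did not overlap between treatments, but the intervals of mouse 1 did. By plate the shares overlapped, with 13.6% on plate 5 without TNF and 12% on plate 3 with TNF. How many of all genes had separate shares is not given here. Cells with at least 10 fragments numbered 8 and 9 without TNF and 27 and 47 with it.

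*Hbegf* (ENSMUSG00000024486), a ligand that ADAM17 releases from the membrane, was at 0.528 and 0.878 CPM without TNF and at 5.06 and 2.87 CPM with TNF. The treatments did not overlap, and the level was 9.59-fold and 3.27-fold higher with TNF in mouse 1 and mouse 2 and higher on each of the 4 plates. The log2 fold change was 2.5 ± 0.512 (SE, edgeR adjusted p = 0.3; with the mouse as a block, 0.0613). DESeq2 gave 2.49 (adjusted p = 0.000279). Few cells carried it, 4 and 2 with at least 10 fragments without TNF and 15 and 7 with it. In mouse 1 with TNF, 1 cell held 328 of its 787 fragments. At equal depth it was found in 2.11% (0.852 to 4.3) and 7.12% (4.52 to 10.6) of cells without TNF and in 10.2% (7.06 to 14.2) and 8.17% (5.36 to 11.8) with TNF, so the intervals of mouse 2 overlap.

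**Figure D4:**
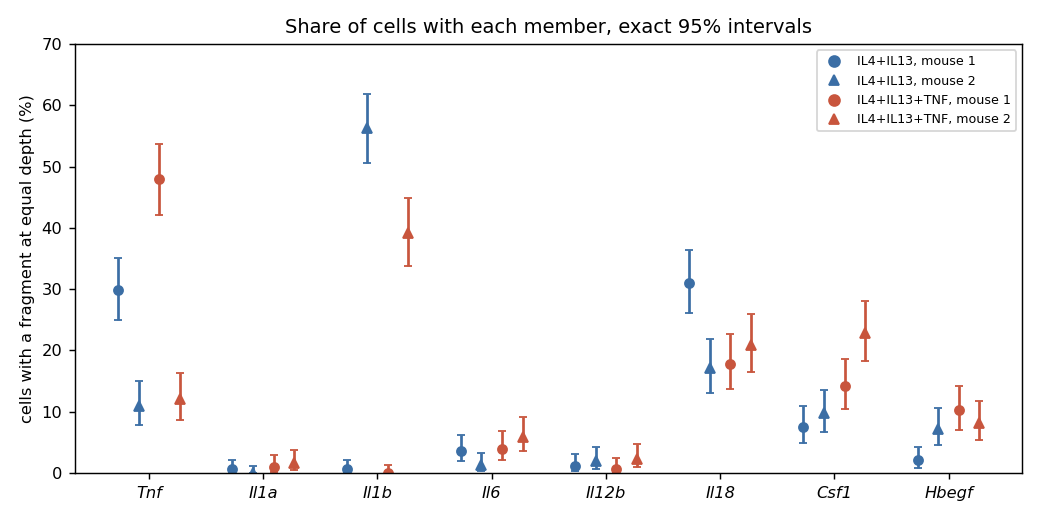
Share of cells with at least 1 fragment after thinning each cell to 339000 fragments (vertical axis, percent), per mouse (shape) and treatment (colour), with exact 95% intervals that cover counting error only. *Csf1* is higher with TNF in both mice, *Tnf* chiefly in mouse 1, and *Il1b* is near 0 in mouse 1 under both treatments.

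Per length, *Il18* had the highest mean level without TNF, at 31.7 ± 6.93 TPM (per-length share of all transcripts; SD, n = 2), followed by *Tnf* at 8.25 ± 4.18 TPM. *Csf1* at 2.72 ± 2.85 and *Il1b* at 1.72 ± 2.41 TPM came next and lay within their spread, and *Hbegf*, *Il6*, *Il12b* and *Il1a* were at 0.302 ± 0.117, 0.272 ± 0.129, 0.0459 ± 0.0254 and 0.0112 ± 0.0158 TPM. With TNF, *Tnf* stood at 26.5 ± 25.3 TPM and *Il18* at 21.1 ± 5.44 TPM, which do not differ beyond their spread. *Il6* followed at 8.9 ± 3.96, *Il12b* at 7.11 ± 2.11 and *Csf1* at 4.74 ± 1.72 TPM, and these neighbours lie within their spread. *Il1b* and *Hbegf* were at 1.68 ± 2.35 and 1.53 ± 0.578 TPM and *Il1a* at 0.335 ± 0.337 TPM.

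Few cells were high in more than 1 of the 8 genes, and most cells were high in none. Across the 28 pairs the mean Spearman correlation was weak, over the 4 sets of cells or, for the 7 pairs with *Il1a*, over the 3 sets that held it, and the cells of a set share library chemistry and plates. The highest mean was 0.102 for *Il6* and *Csf1*, and it was 0.187 and 0.183 with TNF but 0.097 and -0.06 without it. *Il12b* and *Hbegf* had a mean of 0.092 and *Csf1* and *Hbegf* one of 0.0867. At 10 fragments or more, 14 cells held both *Il6* and *Csf1*, where the product of the shares in each set sums to 2.52 cells. *Csf1* and *Hbegf* shared 7 cells beside a product of 2.25, and *Il6* and *Hbegf* 3 beside 0.623. *Tnf* and *Il6* shared 2 cells beside a product of 3.59, and *Tnf* and *Il18* 27 beside 26.7. Cells with at least 10 fragments of none of the 8 genes made up 68.6% and 84.1% without TNF and 53% and 65.9% with TNF.

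**Figure D5:**
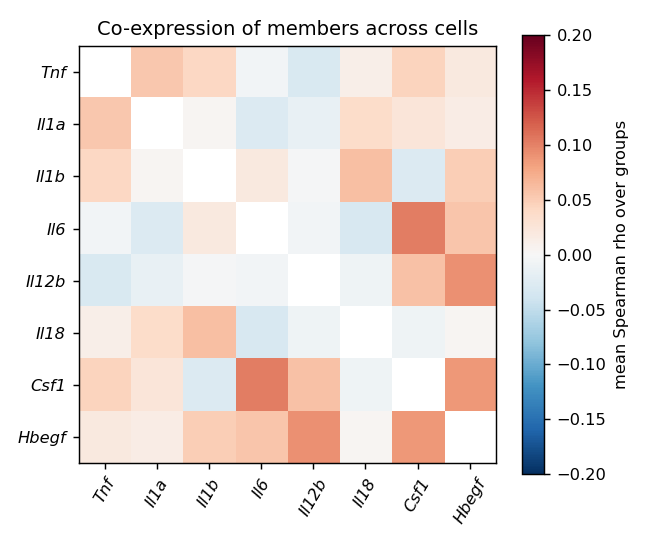
Mean Spearman correlation of CPM across cells for the 28 pairs of genes (colour scale), averaged over the 4 sets of cells (3 for *Il1a*); the diagonal is blank. The strongest is *Il6* with *Csf1* at 0.102, and most pairs are near 0.

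The genes whose pattern over cells was most like each of these were chosen from 12933 genes found in at least 10% of cells of every set. For *Tnf* they were *Nfkbia* (mean Spearman correlation 0.154), *Tnfaip3* (0.131) and the chemokine *Cxcl2* (0.124). For *Il1b* they were *Apoe* (0.191), *Cxcl2* (0.166) and *mt-Rnr2* (0.155). The value of *Apoe* ranged from -0.0441 to 0.432 over the sets, and in mouse 1 only 2 cells without TNF and 1 with it held *Il1b*. Whether these 3 genes follow the rows of wells as *Il1b* does is not given here. For *Il6* the closest genes were *Cd86* (0.185), *Snhg12* (0.169) and *Trib3* (0.154). *Csf1* was closest to *Gm7901* (0.145), *Atp2b1* (0.144) and *Fbxw9* (0.143). For *Il18* they were *Shcbp1* (0.126), *P4ha2* (0.121) and *Tmem161a* (0.121), and for *Hbegf* *Rai14* (0.124), *Map2* (0.123) and *Slc7a1* (0.114). For the sparse genes they were *Rhobtb2* (0.128), *Gm5511* (0.116) and *Smn1* (0.115) for *Il1a*, and *Nkapd1* (0.119), *Clstn3* (0.111) and *Gm4017* (0.11) for *Il12b*. In counts this sparse such weak values are descriptions only.

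The genes around these cytokines were read from lists grouped by role. In each list 0 genes passed without the block, and counts with the block stand beside 3.82% of all genes tested, so that 1 or 2 calls in a short list say little. Of the 13 NF-κB feedback genes tested, 0 passed the edgeR test without the block and 7 passed as higher with it. Their median log2 fold change was 1.56, where that of all genes tested was 0.0038. *Nfkbie*, an inhibitor of NF-κB, was at 10.2 and 7.31 CPM without TNF and at 82.9 and 74.8 CPM with TNF. *Tnfaip3* (A20, a brake on the pathway) had a log2 fold change of 2.37, the adaptor *Traf1* one of 2.32 and the subunit *Relb* one of 2.22, with edgeR block adjusted p of 0.0124, 0.00798 and 0.00743.

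Of the 5 antagonists tested, 0 passed without the block and 2 as higher with it. *Il1rn*, the IL1 receptor antagonist, was at 14.3 and 7.93 CPM without TNF and at 40.2 and 24.5 CPM with TNF (edgeR block adjusted p = 0.0145). *Il18bp*, which binds IL18, was at 8 and 11.9 CPM and at 18.6 and 29.6 CPM (edgeR block adjusted p = 0.0272). *Sigirr*, an inhibitory member of the IL1 receptor family, had a log2 fold change of -0.46.

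Of the 8 maturation genes tested, 0 passed without the block and 3 as higher with it. These were *Adam17*, the sheddase of TNF and HB-EGF, at 131 and 222 CPM without TNF and 404 and 421 CPM with TNF, *Gsdmd*, the pore through which IL1β leaves the cell, and *Rhbdf2*, which escorts ADAM17 (log2 fold changes 1.22, 0.85 and 0.73). Their edgeR block adjusted p were 0.0302, 0.021 and 0.048, and *Casp4* had a log2 fold change of 0.38. Of the 9 receptors tested of 13, 1 passed with the block, as lower, beside the 3.82% of all genes. That was *Il6ra*, which binds IL6, at 45.5 and 89 CPM and at 25 and 43.7 CPM (edgeR block adjusted p = 0.0255). *Il1rap* had a log2 fold change of -0.76, *Tnfrsf1b* one of 0.43 and *Il6st* one of -0.4.

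Of the 8 genes of mRNA decay, 1 passed with the block, as lower, beside the 3.82% of all genes. This was *Zfp36l2*, which binds AU-rich elements of cytokine mRNA, at 134 and 224 CPM without TNF and 81.9 and 112 CPM with TNF (edgeR block adjusted p = 0.03). *Zfp36*, which encodes tristetraprolin, had a log2 fold change of -0.42, and *Rc3h1* and *Rc3h2*, the roquins, had -0.41 and -0.32. Of the 20 partner cytokines only 3 were tested, of which 1 passed with the block. This was *Nrg1*, a ligand of the EGF receptor family like HB-EGF, at 0.193 and 0.457 CPM without TNF and at 4.41 and 5.01 CPM with TNF (edgeR block adjusted p = 0.0152). *Osm* and *Ebi3* had log2 fold changes of 0.13 and -0.06.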

How the data were processed

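The authors aligned fragments of each well to mm10 with gsnap and deposited counts of uniquely mapped fragments per Ensembl gene, made with featureCounts 1.6.3, without strand and without molecular identifiers; the submitters' notes also name bcl2fastq 2.19.1 and Seurat 3. Intervals cover counting error only. The 92 spike-in rows and 8 columns of no labelled sample were not used.

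Wells more than 3 median absolute deviations below their plate's median in total or genes, or above it in mitochondrial or spike-in share, were removed; no doublet caller was run. For each mouse, counts of all kept cells under a treatment were added up and compared by edgeR 4.0.16 (quasi-likelihood, TMM, Benjamini-Hochberg over 17034 genes found in at least 5% of cells of a treatment) in R 4.3.3. P-values without the block measure the spread between 2 mice under each treatment. Those with the block measure how far the difference with TNF varies between the 2 mice. Both also draw on the spread of other genes. CPM per mouse uses TMM, CPM per plate the plain total, and TPM the exon length in the table. Mouse numbers pair the sums, since the labels give 1 mouse number to both treatments (r = 0.583 of the deviations across genes). The fits were tested on simulated data, where the block fit made more false calls than its threshold allows when the dispersions and mouse effects were those of the data. Shares used cells thinned to 339000 fragments, the 10th percentile, which left 1250 cells. DESeq2 1.42.0 and limma 3.58.1 on log2(CPM + 1) were alternatives. Everything else used scipy 1.17.1, pandas 2.3.3, numpy 2.4.6 and matplotlib 3.10.9 under Python 3.11.15.

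The genes and lists were chosen with earlier results of these data known. Named were the 8 genes, the 3 genes most correlated with each and, per list, genes past the threshold and up to 4 with the largest log2 fold change at a mean of at least 5 CPM; *Nrg1*, *Ccr7*, *Fscn1* and *Clec4e* were named after their values were seen.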

Additional observations from a re-analysis of the deposited data

Results flagged for a closer look

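Of 4 wells that were labelled IL4+IL13 but given no mouse, and so were in no comparison, 3 had a column in the table. They held more than 3 fragments of 2 of the genes, the limit that a count of 0 allows. The well of plate 3 had 4 fragments of *Tnf* among 279461, and the well of plate 4 had 12 fragments of *Il12b* among 354874. These wells lie in the last row of their plates, among the rows with TNF, and had 10802 and 11121 genes detected, above the medians of 7431 to 8161 in the 4 sets of cells, so they were not compared with single cells.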

How the results depend on the processing

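The direction of *Tnf*, *Il6*, *Il18*, *Csf1* and *Hbegf* was the same under every alternative run, and that of *Il1b* was not. With the mouse as replicate block, which follows the pairing of the samples, 331 genes were called higher and 320 lower, with 1 of the 8 genes among them (*Il6*, log2 fold change 5.13). DESeq2 called 305 higher and 293 lower, with 2 of the 8 genes (*Il6* 5.14, *Hbegf* 2.49). Leaving out each sum in turn gave 3 to 29 genes higher, 0 to 1 lower and 0 to 1 of the 8 genes. The log2 fold changes then ranged from 0.16 to 2.57 for *Tnf*, from -6.27 to 7.18 for *Il1b*, from 4.62 to 5.78 for *Il6*, from -0.73 to -0.17 for *Il18*, from 0.17 to 2.84 for *Csf1* and from 2.03 to 2.91 for *Hbegf*; *Il6* passed without the IL4+IL13+TNF sum of mouse 1 (5.53, edgeR adjusted p = 0.0396), and *Il1b* reversed without the IL4+IL13 sum of mouse 1 (-0.87) and without the IL4+IL13+TNF sum of mouse 2 (-6.27). A treatment left with 1 sum was assumed to vary like the other. Without the counts of the 8 genes in their own 5 top cells, *Il1b* was at -0.29. Of the shares, correlations and concentrations, 84 values under the alternatives moved by less than the spread between mice or sets of cells and 12 by more. A concentration is the share of a gene's CPM held by its highest cells, the top 5% or, as the alternative, the top 1%. The top 1% cannot hold more than the top 5%, so the direction of these moves was fixed in advance. Most of the 12 were of this kind.

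Several alternatives were chosen after seeing the data. Without plate 2 or plate 5, 5 and 2 genes were called higher, and without plate 4 *Il1b* was at -0.3. Without the counts of the 8 genes in their own 5 top cells and with the replicate block, *Il1b* was at -0.29. In that fit 340 genes were higher, 333 were lower and 2 of the 8 passed (*Tnf* 2.07, *Csf1* 2.9). Without the *Ccr7*-rich cells and with the replicate block, 351 were higher and 348 lower, with 1 of the 8 (*Il6* 5.05). Without the gene filter and with the replicate block, 182 were higher and 130 lower, with 2 of the 8 (*Il6* 5.13 and *Il12b*, which the filter had left out). The causes were not tested. With 2 mice and few carrier cells, precision is limited by the number of mice and of carrier cells.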

Other observations

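In the same unassigned wells, *Il6* had 2 fragments on plate 4, *Il1b* had 1 on plate 4 and 1 on plate 5, and *Il1a* and *Il18* had 0 in all 3. The well of plate 5 had a total of 87198 fragments.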
